A study of Mus musculus with 10 samples.

Results

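The genes described here are those that converted hair cells (cHCs) and every native hair cell library held well above the supporting cells (SCs) from which cHCs derive. They were chosen by measured values. A gene was taken when its CPM (its share of all counts on genes in that library, scaled to the same fixed total in every library) reached at least 10 in all 8 hair cell libraries, and when the lowest of the 8 was at least 5 times the higher of the 2 SC libraries. 126 genes met both conditions, of 3617 with at least 10 CPM in all 8 hair cell libraries (3.48%) and of 34590 genes listed. The genes lie high in hair cells and low in SCs by construction, so the comparison with SCs is given as a description without a test. The tests below are confined to differences among the 4 hair cell types, which the rule did not set against each other, although it held all 8 libraries at or above its floor.

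The study asked how far Atoh1 moves cochlear SCs towards hair cells. RNA from pools of hand-picked fluorescent mouse cochlear cells was amplified and sequenced in 10 libraries, 2 per cell type. The 5 groups were SCs at P26 and P27, cHCs at P33, outer hair cells (OHCs) at P7, OHCs at P21 and P22 (called OHCs (P22)), and inner hair cells (IHCs) at P74 and P75. SCs and cHCs had tamoxifen at P12 and P13. SCs carried Fgfr3iCreER+, in which Fgfr3 regulatory sequence drives a tamoxifen-dependent Cre in Deiters' and pillar cells, and the reporter Rosa26-CAG-loxP-stop-loxP-tdTomato+. The cHCs came from mice with both of these and in addition Atoh1-HA+ and alpha9 AChR-EGFP+. The study isolated the cHCs by tdTomato together with EGFP under the Chrna9 promoter. OHCs of both ages are labelled prestin-YFPYFP/+, with YFP at the Slc26a5 locus. For OHCs (P7) the study's supplement instead names a PrestinCreERT2 allele with a tdTomato reporter, and it lists tamoxifen some days before harvest. IHCs came from mice with Pval-Cre+ and the same tdTomato reporter, in which the locus of Pvalb, itself among the 126 genes, drives Cre. SCs at P26 and P27 are not the P12 cells in which Atoh1-HA was switched on, and the SC mice lacked both added alleles. The study calls the 2 libraries of a type biological duplicates, and for SCs, OHCs (P22) and IHCs the titles give them different ages. The titles hold m21 and f22 for OHCs (P22), so those duplicates may also differ in sex. Ages of OHCs (P22) are taken from these titles, and the study's supplement gives later ones. The labels name no animals, so p-values measure the spread between these pools.

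Hair cells are the mechanoreceptors of the inner ear. Deflection of the stereocilia, the actin-filled projections of the hair bundle, pulls on tip links and opens a channel complex, and the resulting calcium entry at the base of the cell releases glutamate from vesicles tethered at ribbon synapses. IHCs pass the signal to the auditory nerve, whereas OHCs amplify it mechanically. Supporting cells surround them and, in the mature mammalian cochlea, do not replace lost hair cells.

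Between 15016129 and 40518766 counts fell on genes per library, so 3 counts correspond to 0.074 to 0.2 CPM. In the SC libraries 0.0599% and 0.0603% of the counts fell on the 126 genes, against 1.99% and 2.61% in the cHC libraries and 3.99% to 5.71% in the 6 native hair cell libraries. Unless plain CPM is named, levels below are CPM scaled by the trimmed mean of M values (TMM), whose factor was 0.5825 in the P21 library of OHCs (P22) and 0.9298 to 1.199 elsewhere. Relative to plain CPM this scaling lowered the median log2 ratio of all 16891 tested genes by 0.25 for cHC to OHC (P7), 0.46 for cHC to OHC (P22) and 0.12 for cHC to IHC. Of the 10 files, 4 are attached to the record of another sample, and the library each file is named for was used. With the files as attached, 0 genes met the rule. All 126 genes passed the filter on low counts. The library numbers in the titles fall in a low series (SCs, cHCs and OHCs (P7)) and a high one (OHCs (P22) and IHCs). Only the contrasts of cHCs with OHCs (P7) and of IHCs with OHCs (P22) stay within a series. For the others, series and cell type or age cannot be told apart. The titles also split the low series into sets of 1 SC, 1 cHC and 1 OHC (P7) library each, numbers 12, 13 and 15 with 15016129 to 22597688 counts and numbers 11, 16 and 14 with 33162033 to 40518766. The 2 libraries of OHCs (P22) and of IHCs are named below by age, and values are given in the order P21 then P22 and P74 then P75.

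In the mm9 assembly used by the authors, 125 of the 126 genes were found in the GENCODE M1 annotation by symbol (all but Ppp1r27), on 20 chromosomes, 14 of them on chromosome 2. Among them 121 are protein-coding, 2 are lincRNAs, 1 is a pseudogene and 1 a processed transcript. Only 4 pairs lie within 100 kb of each other. Ankfn1 and 4932411E22Rik are 2038 bases apart, and RefSeq lists the second symbol as a synonym of the first. Strc (chr2:121189464-121212904, minus strand) and Ckmt1 (chr2:121183450-121189473, plus strand) overlap by 10 bases at their ends. Exons of 27 genes overlap exons of another annotated gene, mostly on the opposite strand, and no strand setting of the counting is given, so reads of such partners cannot be told apart. Several symbols in the files are older names: AI428936 is Syne4, Accn2 is Asic1, Gpr98 is Adgrv1, Fam40b is Strip2 and 2810011L19Rik is Tunar.

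Promoter windows of 300 bases (250 before to 50 after the start, RefSeq, GRCm38.p6) were found for 94 genes, 121 windows in all. The E-box CAGCTG, a form bound by basic helix-loop-helix factors such as Atoh1, occurred on either strand in 28.1% of these windows, in 13.2% of the 3468 windows of genes with at least 10 CPM in all 8 hair cell libraries, and in 16.3% of all 32851 windows. The form CAGATG occurred in 14%, 10.1% and 17.2%, the homeodomain core TAATTA in 4.13%, 2.51% and 5.29%, GTTGCC (part of the site of Rfx factors) in 18.2%, 12.7% and 12.5%, the GC box GGGCGG in 53.7%, 66.6% and 35.7%, and TATAAA in 8.26%, 5.51% and 13.6%. These shares are descriptions of letters, not of binding. The windows below hold the CAGCTG of Lhfpl5, Tmie and Kncn, 3 genes on the mechanotransduction and tip link list. Kncn is on that list but encodes kinocilin of the hair cell's apical surface. The other windows are of Barhl1, whose mean was higher in cHCs than in native hair cells without passing the test, and of Homer2, among the lowest in cHCs. Capitals mark CAGCTG on either strand. They lie at chr17:28575469-28575768 (plus strand), chr9:110880024-110880323 (minus strand), chr4:115884150-115884449 (plus strand), chr2:28916619-28916918 (minus strand) and chr7:81692916-81693215 (minus strand).
Lhfpl5: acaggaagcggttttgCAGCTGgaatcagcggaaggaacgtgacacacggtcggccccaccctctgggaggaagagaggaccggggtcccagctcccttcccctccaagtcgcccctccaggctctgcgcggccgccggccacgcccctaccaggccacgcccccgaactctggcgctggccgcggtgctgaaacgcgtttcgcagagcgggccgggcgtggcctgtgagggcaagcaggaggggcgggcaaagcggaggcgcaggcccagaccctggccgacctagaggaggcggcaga
Tmie: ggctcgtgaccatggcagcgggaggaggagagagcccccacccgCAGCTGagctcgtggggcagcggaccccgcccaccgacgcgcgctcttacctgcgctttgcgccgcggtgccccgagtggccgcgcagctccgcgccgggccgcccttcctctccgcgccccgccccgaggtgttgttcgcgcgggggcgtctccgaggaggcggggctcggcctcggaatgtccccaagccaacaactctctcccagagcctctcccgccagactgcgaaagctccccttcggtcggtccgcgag
Kncn: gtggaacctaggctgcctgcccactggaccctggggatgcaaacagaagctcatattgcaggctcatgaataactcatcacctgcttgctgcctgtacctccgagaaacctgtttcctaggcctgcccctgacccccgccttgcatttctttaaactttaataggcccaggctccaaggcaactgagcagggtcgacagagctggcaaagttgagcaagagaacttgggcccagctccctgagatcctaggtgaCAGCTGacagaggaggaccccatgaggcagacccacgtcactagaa
Barhl1: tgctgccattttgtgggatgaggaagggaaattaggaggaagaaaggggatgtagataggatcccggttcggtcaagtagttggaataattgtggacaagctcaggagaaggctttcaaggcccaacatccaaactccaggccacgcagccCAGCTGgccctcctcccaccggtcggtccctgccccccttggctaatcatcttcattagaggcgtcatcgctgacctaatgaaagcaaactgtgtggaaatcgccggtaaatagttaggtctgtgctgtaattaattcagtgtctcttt
Homer2: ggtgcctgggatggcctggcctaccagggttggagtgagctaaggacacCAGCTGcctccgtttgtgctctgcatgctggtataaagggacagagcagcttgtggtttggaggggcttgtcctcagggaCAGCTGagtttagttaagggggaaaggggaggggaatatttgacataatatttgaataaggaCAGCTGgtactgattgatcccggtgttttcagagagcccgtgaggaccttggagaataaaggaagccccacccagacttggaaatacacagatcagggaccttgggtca
The Homer2 window holds 3 copies and each of the others 1.

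The margin over SCs is what the rule used and is given as a description. In plain CPM, 73 of the 126 genes lay under 1 in both SC libraries, none was at 0 in both, and 15 reached 10 or more in an SC library. The ratio of the lowest hair cell library to the higher SC library was widest for Kncn (198 against 0.272, a ratio of 730), which encodes kinocilin of the hair cell's apical surface. It was followed by Xirp2 (630), Ankfn1 (582), Pou4f3 (518), Apba1 (434), Loxhd1 (422), Dner (410), Gipc3 (394), Grid2ip (375) and Ap3b2 (364). Just inside the threshold lay AI428936 (5.04), Ctbp2 (5.1), Synrg (5.2), Ptpn3 (5.32) and Cblb (5.32), and just outside lay Nptx1 (4.94), Cdk8 (4.91), Ppp1r9b (4.76), Pcdh7 (4.75) and Myo6 (4.59). Myo6, a hair cell myosin and long-used marker, thus missed the list through its level in SCs (276 plain CPM) while its lowest hair cell library held 1267.

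**Figure D1:**
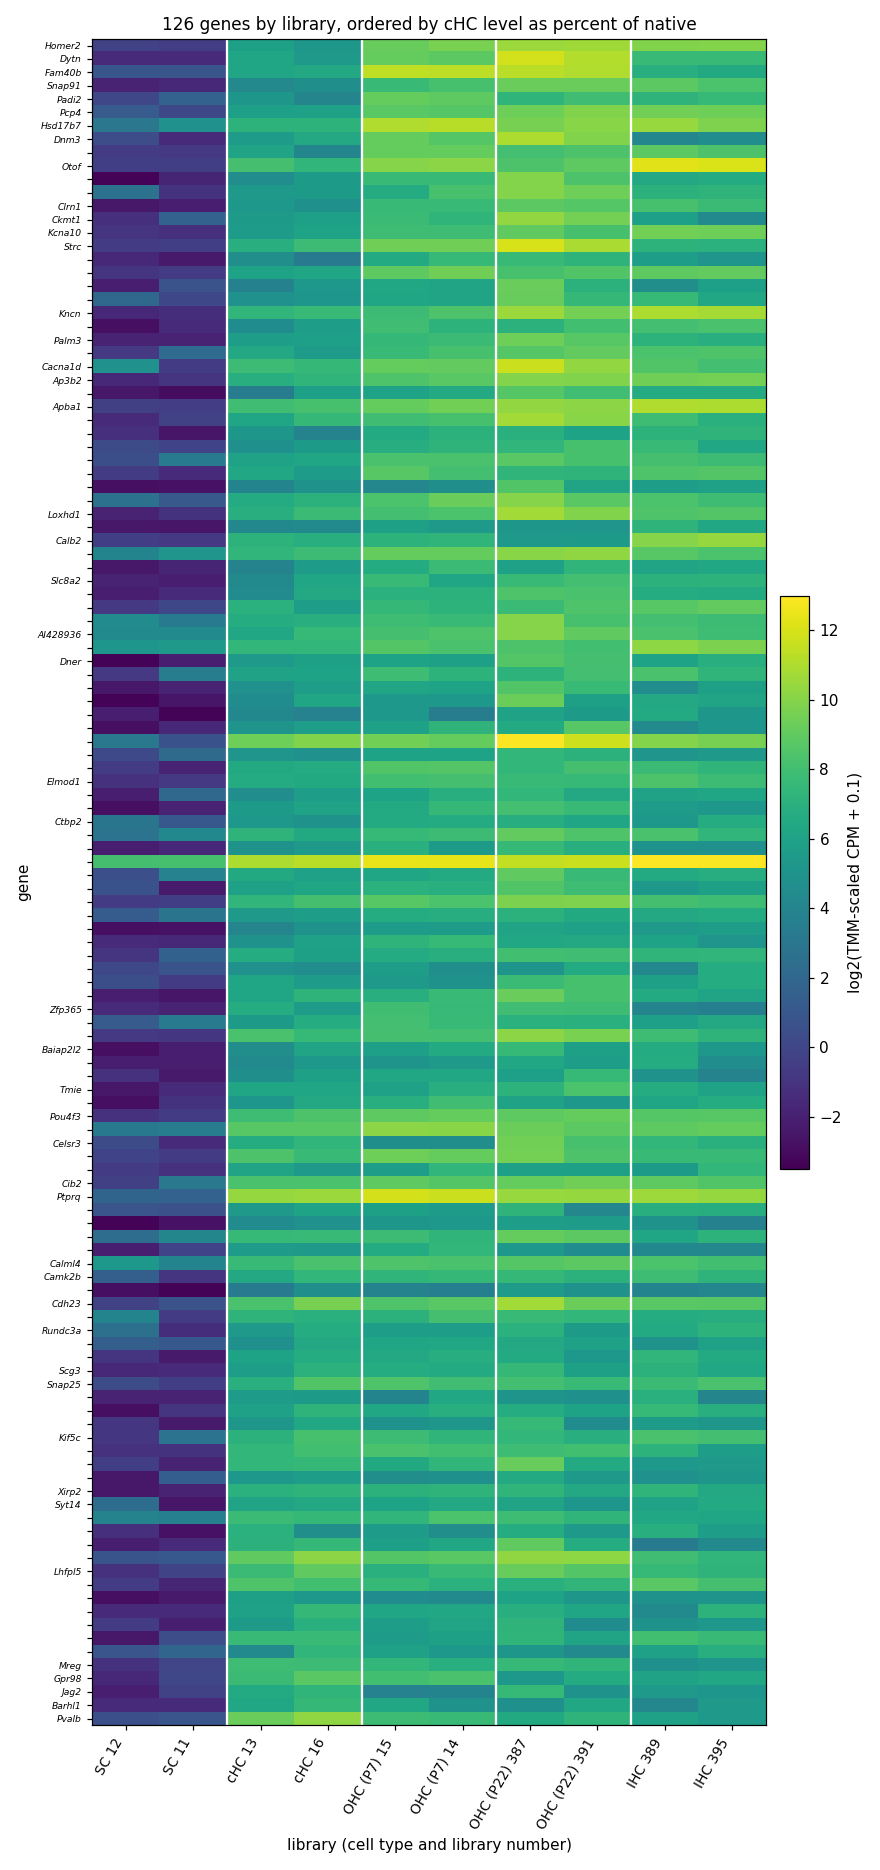
Level of each of the 126 genes (rows, ordered by the cHC mean as a percentage of the native mean) in each of the 10 libraries (columns), as log2 of TMM-scaled CPM plus 0.1. Rows are labelled for the genes described in the text. The 2 SC columns are dark for nearly all rows, with medians of 0.444 and 0.478 CPM, and the cHC columns are duller than the native ones in the upper rows.

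Across hair cells the 126 genes were present at unequal levels. Their median level was 0.444 and 0.478 CPM in SCs, 70.1 and 86.5 in cHCs, 147 and 169 in OHCs (P7), 238 and 235 in OHCs (P22), and 136 and 114 in IHCs. Both cHC libraries thus lay below all 6 native libraries and far above both SC libraries, the second by the rule. The mean of cHCs was below the mean of the native libraries for 103 genes, under 50% of it for 73 and under 25% for 35. It lay between 50% and 200% for 48 genes and above 200% for 5. The median gene stood at 42.8% of its native mean. Fitted log2 fold changes against the mean of the 3 native types were negative for 101 members (80.2%). They were also negative for 65.2% of the 3617 genes with at least 10 CPM in all 8 hair cell libraries. Of all 16891 tested genes, 45.1% had a negative value. Counts at the other cutoffs and by cell type are given without such a share. The lowest of the 4 cell type means fell in cHCs for 68 genes, in IHCs for 29, in OHCs (P7) for 17 and in OHCs (P22) for 12. The highest was in OHCs (P22) for 70 genes, in IHCs for 27, in OHCs (P7) for 21 and in cHCs for 8. On plain CPM cHCs were below the native mean for 93 genes, lowest of the 4 types for 61 and highest for 15. These are pooled cells, so fewer expressing cells and less RNA per cell cannot be told apart.

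The 2 libraries of a type differed by a median of 0.67 on the log2 scale for these genes in cHCs, 0.31 in OHCs (P7), 0.65 in OHCs (P22) and 0.39 in IHCs. Pairs agreed within 2-fold for 86 (68.3%), 116 (92.1%), 90 (71.4%) and 107 (84.9%) genes in the same order. Among the 3617 genes with at least 10 CPM in all 8 hair cell libraries, the medians were 0.54, 0.45, 0.80 and 0.54. Of those genes 76%, 81.7%, 60.1% and 75.6% agreed within 2-fold. Library 13 was the lowest of the 8 for 56 genes and library 16 for 21, so the cHC libraries were unlike each other, with 13, of the shallower set, the lower in the summed level (16627 against 21972 CPM; native libraries 39831 to 74565). The spread of a gene over the 8 libraries, highest over lowest, had a median of 8.45 and ran from 1.83 for Xirp2 to 111 for Dnm3. It stayed under 4-fold for 24 genes and passed 20-fold for 24.

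The same rule was then applied to the 6 native libraries alone, a description made after the values were known. It found 208 genes, of which 126 (60.6%) also met it in both cHC libraries, 30 (14.4%) in a single cHC library and 52 (25%) in neither. Of the 30, 21 met it only in library 16 and 9 only in library 13. Genes of the bundle and of transduction were split between both and a single library, with none missing from both. Tmc1, a pore-forming subunit of the transduction channel, measured 46.2 and 1.9 CPM in cHCs against 184 to 1301 in native hair cells. Tomt, which delivers that channel to the bundle, measured 4.8 and 16.2 CPM in cHCs. Whrn, a scaffold at stereocilia tips, measured 1.74 and 13.4, and Dfnb59 (pejvakin) 28.1 and 5.65. The repressor Gfi1 measured 7.91 and 57.1 CPM in cHCs against 91.8 to 440 in native cells. In each case the 2 cHC libraries stood on opposite sides of the rule's floor.

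Few of the 52 genes that met it in neither cHC library are on the lists. They were 2 of 14 genes of the ribbon synapse list that met it in native cells, 2 of 4 ion channel genes, 1 of 7 calcium genes, 1 of 2 microtubule genes and 1 of 4 transcription factors, against 12, 2, 6, 1 and 2 in both cHC libraries. Slc17a8, the vesicular glutamate transporter VGLUT3, measured 1.87 and 0 CPM in cHCs against 26.3 to 1905 in native cells. Kcnma1, the BK potassium channel, measured 0.255 and 0.355 against 25.7 to 479. Ocm (oncomodulin, a calcium buffer of OHCs) measured 4.97 and 1.9 against 68.6 to 9268, Tuba8 0.128 and 0.938 against 41.6 to 289, and Scn8a 3.23 and 3.35 against 24.3 to 174. Dnm1 (27.1 and 19.6 CPM in cHCs, up to 7.06 in SCs) and the transcription factor Sall3 (25.2 and 55.2, up to 39.9 in SCs) were detected in cHCs but not far enough above SCs. Spns2, a deafness gene that encodes a sphingosine-1-phosphate transporter, measured 2.04 and 0.811 CPM in cHCs against 9.82 to 68.7. These genes are set beside the 126 to show where the list ends.

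**Figure D2:**
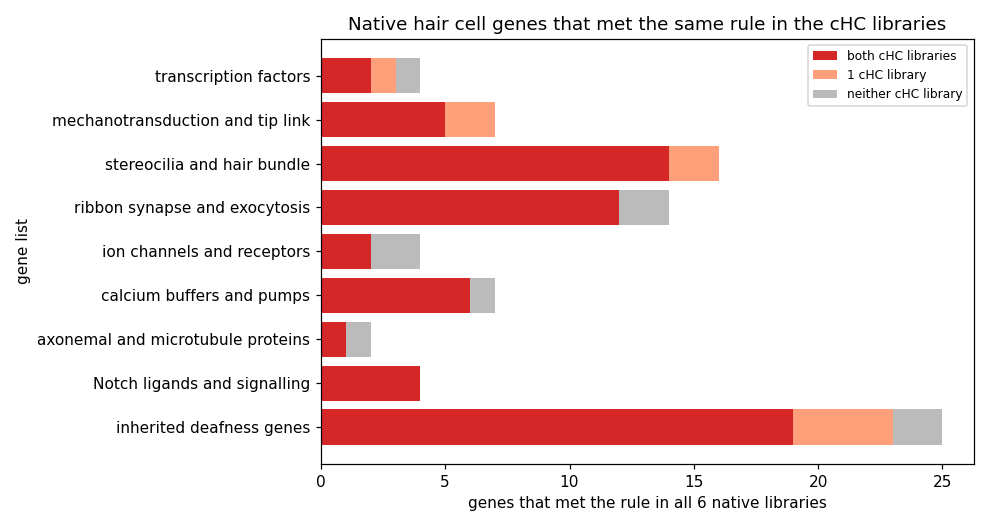
Number of genes on each gene list (y axis) that met the rule in all 6 native libraries (x axis), split by whether they met it in both cHC libraries, in a single cHC library or in neither. The stereocilia list holds 14 genes met in both and 2 in a single library, and the ion channel list 2 in both and 2 in neither.

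Only 2 of 37 listed transcription factors are among the 126 genes. Pou4f3, a POU factor required for hair cell survival and downstream of Atoh1, measured 235 and 330 CPM in cHCs, 488 and 543 in OHCs (P7), 484 and 560 in OHCs (P22), and 404 and 420 in IHCs, after 0.355 and 0.584 in SCs. Both cHC libraries lay below all native ones, at 58.5% of the native mean, but the difference did not pass the test (log2 fold change -0.77 ± 0.37 SE, adjusted p = 0.301). In plain CPM the cHC libraries held 281.3 and 391.4, and the second lay above the P21 library of OHCs (P22) (281.6). Barhl1, a homeodomain factor needed for long-term maintenance of hair cells, measured 80.8 and 177 CPM in cHCs, 82 and 30.4 in OHCs (P7), 27 and 80.9 in OHCs (P22), and 17.4 and 41.5 in IHCs. Its cHC mean was 277% of the native mean, yet the lower cHC library overlapped the native ones and the test was not passed (1.53 ± 0.65, adjusted p = 0.232). Of the 34 tested factors on the list, 8 were higher and 4 lower in cHCs than in the native mean, none of them Pou4f3 or Barhl1.

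Among 15 genes on the mechanotransduction and tip link list, 5 are members. Cdh23, the cadherin of the upper tip link, measured 301 and 797 CPM in cHCs, 345 and 435 in OHCs (P7), 1693 and 641 in OHCs (P22), and 441 and 423 in IHCs, so that the cHC libraries spanned the native range except for the P21 library of OHCs (P22). Lhfpl5, which joins the tip link to the channel, measured 211 and 512 CPM in cHCs, 126 and 196 in OHCs (P7), 565 and 377 in OHCs (P22), and 184 and 150 in IHCs. Tmie, another subunit of the complex, measured 76.7 and 76.8 CPM in cHCs and 61.3 to 323 in native libraries, and Cib2, a calcium-binding partner of the channel, 309 and 304 against 363 to 676. None of these 4 passed the test in any contrast with cHCs, and of all 15 listed genes 2 were higher and 2 lower than in the native mean. Kncn, the listed gene for kinocilin of the apical surface, did. It measured 165 and 204 CPM in cHCs, 224 and 335 in OHCs (P7), 1471 and 741 in OHCs (P22), and 2046 and 1785 in IHCs. It was lower in cHCs than in OHCs (P22) by a log2 fold change of -2.58 ± 0.47 (adjusted p = 0.0143) and than in IHCs by -3.38 ± 0.48 (adjusted p = 0.00935), while the difference from OHCs (P7) was -0.60 ± 0.44 (adjusted p = 0.66). Per kilobase of exon, Lhfpl5 (287 CPM per kb) and Cib2 (214) were among the 6 highest of the 126 genes in cHCs.

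The largest group was the stereocilia and hair bundle list, with 14 of 50 genes. Xirp2, an actin-binding repeat protein of the cuticular plate and stereocilia, was the most even of all 126: it measured 129 and 151 CPM in cHCs, 138 and 152 in OHCs (P7), 160 and 88.6 in OHCs (P22), and 158 and 87.7 in IHCs. Elmod1, a regulator of Arf GTPases at the apical surface, measured 101 and 91.5 CPM in cHCs and 185 to 343 in native libraries, and Baiap2l2, a membrane-bending protein of stereocilia tips, 24.7 and 69.4 against 38.5 to 185. Gpr98, the very large receptor of ankle links, measured 212 and 431 CPM in cHCs, 255 and 301 in OHCs (P7), 39.1 and 100 in OHCs (P22), and 64.1 and 85.8 in IHCs. None of its contrasts passed the test (cHC minus native mean 1.51 ± 0.53, adjusted p = 0.148). Mreg (melanoregulin) measured 238 and 228 CPM in cHCs and 27 to 186 in native libraries, and was not called against the native mean (1.35 ± 0.44, adjusted p = 0.112).

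Among the 14 bundle members, 3 were called against OHCs (P22), all lower in cHCs, while over the whole list of 50 genes 4 were lower and 4 higher. Strc, stereocilin of the horizontal top connectors and of the tectorial attachment of OHCs, measured 119 and 228 CPM in cHCs, 700 and 674 in OHCs (P7), 4185 and 1878 in OHCs (P22), and 143 and 134 in IHCs. Its log2 fold change was -4.13 ± 0.53 against OHCs (P22) (adjusted p = 0.00463), -1.98 ± 0.49 against OHCs (P7) (adjusted p = 0.154) and 0.33 ± 0.47 against IHCs (adjusted p = 0.842), so cHCs lay beside IHCs for this gene. Ckmt1, whose 3' end overlaps Strc, followed the same order of cell types (44.6 and 55.8 CPM in cHCs, 1292 and 744 in OHCs (P22), 56.4 and 21 in IHCs). Clrn1, the Usher syndrome protein clarin, measured 39.7 and 27.8 CPM in cHCs and 195 to 464 in the native libraries, with -3.67 ± 0.53 against OHCs (P22) (adjusted p = 0.00594) and -2.93 ± 0.51 against IHCs (adjusted p = 0.0221). Loxhd1, needed for transduction in mature hair cells, measured 122 and 211 CPM in cHCs and 1693 and 950 in OHCs (P22), with -2.99 ± 0.53 (adjusted p = 0.0134). Ptprq, a phosphatase of the bundle's shaft links, measured 1362 and 1457 CPM in cHCs, 3849 and 3289 in OHCs (P7) and 1364 to 1534 in the mature libraries. Across the whole list of 50 genes, 7 were higher and 3 lower in cHCs than in the native mean, 2 of the lower being members (Clrn1 and Strc).

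Ribbon synapse and exocytosis genes supplied 12 of 63. The SNARE Snap25 measured 125 and 361 CPM in cHCs and 208 to 348 in native libraries. Its 2 cHC libraries were thus the lowest and the highest of the 8. The spread over the 8 libraries was under 4-fold for Snap25, for Scg3, a granule protein, and for Syt14, a synaptotagmin-like protein. Otof, otoferlin, the calcium sensor of hair cell exocytosis, measured 280 and 161 CPM in cHCs, 1036 and 1145 in OHCs (P7), 338 and 490 in OHCs (P22), and 5010 and 4216 in IHCs. It was lower in cHCs than in IHCs by a log2 fold change of -4.39 ± 0.45 (adjusted p = 0.00384) and than in OHCs (P7) by -2.31 ± 0.41 (adjusted p = 0.0454), and did not pass against OHCs (P22) (-0.91 ± 0.39, adjusted p = 0.236). Snap91, the clathrin adaptor AP180, measured 19.3 and 26.1 CPM in cHCs against 208 to 608 in native libraries, and was lower in all 3 contrasts (-3.46 ± 0.50, -4.72 ± 0.53 and -4.13 ± 0.52 against OHCs (P7), OHCs (P22) and IHCs, adjusted p = 0.0223, 0.00214 and 0.00594).

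Dnm3, a dynamin, had the widest range of all: 46.6 and 88.2 CPM in cHCs, 549 and 409 in OHCs (P7), 1969 and 933 in OHCs (P22), and 17.8 and 23.6 in IHCs. It was lower in cHCs than in OHCs (P22) by -4.43 ± 0.75 (adjusted p = 0.0115) and not called against IHCs (1.70 ± 0.67, adjusted p = 0.339). Ap3b2, a neuronal subunit of the adaptor AP-3, measured 120 and 156 CPM in cHCs against 355 to 969 in native libraries and was lower than in OHCs (P22) and IHCs. Cacna1d, the channel Cav1.3 that gates release, measured 228 and 183 CPM in cHCs and 271 to 3347 in native libraries, without passing the test. Ctbp2, whose locus also encodes the ribbon protein RIBEYE, measured 38.9 and 31.4 CPM in cHCs and 38.8 to 112 in native libraries, and the gene counts do not separate its transcripts. Of 62 tested synapse genes, 3 were higher and 5 lower in cHCs than in the native mean, 3 of the lower being members.

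Of 46 ion channel and receptor genes, 2 are members, of which 1 is described. Kcna10, a voltage-gated potassium channel, measured 49.1 and 67 CPM in cHCs, 233 and 240 in OHCs (P7), 501 and 300 in OHCs (P22), and 727 and 642 in IHCs, with -2.78 ± 0.49 against OHCs (P22) (adjusted p = 0.013) and -3.56 ± 0.51 against IHCs (adjusted p = 0.00922). Of 41 tested channel genes, 8 were higher and 5 lower in cHCs than in the native mean.

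Genes of calcium buffering and transport, 6 of 29, went in different directions. Pvalb, the calcium buffer parvalbumin, measured 599 and 1227 CPM in cHCs, 229 and 204 in OHCs (P7), 91.4 and 153 in OHCs (P22), and 62.1 and 42.9 in IHCs, after 1.33 and 1.7 in SCs. It was the only member called higher in cHCs, by a log2 fold change of 2.90 ± 0.55 against OHCs (P22) (adjusted p = 0.0174), 4.12 ± 0.58 against IHCs (adjusted p = 0.00922) and 3.03 ± 0.38 against the native mean (adjusted p = 0.00257). Against OHCs (P7) it was 2.08 ± 0.54 (adjusted p = 0.177). The IHC mice carry Cre under this locus, and its part in the IHC level was not tested. Pcp4, a small protein of calcium signalling, measured 57 and 62.2 CPM in cHCs and 394 to 918 in native libraries (-3.73 ± 0.53 against OHCs (P22), adjusted p = 0.00582). Calb2, calretinin, separated IHCs from the rest: 141 and 116 CPM in cHCs, 142 and 160 in OHCs (P7), 43.6 and 44.1 in OHCs (P22), and 1044 and 1370 in IHCs, with -3.23 ± 0.46 for cHCs against IHCs (adjusted p = 0.00935). Calml4 (195 and 309 CPM in cHCs, 256 to 451 in native libraries) and the exchanger Slc8a2 (19.7 and 78 against 74.9 to 266) were not called. Of 27 tested genes of this list, 4 were higher and 6 lower in cHCs than in the native mean.

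Of the signalling list 4 of 45 genes are members. Jag2, a Notch ligand of nascent hair cells, measured 97.1 and 157 CPM in cHCs, 14.2 and 15.2 in OHCs (P7), 184 and 29.9 in OHCs (P22), and 41.8 and 36.1 in IHCs. The OHC (P22) libraries disagreed, and no contrast with cHCs passed (3.12 ± 1.01 against OHCs (P7), adjusted p = 0.307). Dner, a Notch-related transmembrane protein, measured 42.2 and 59.3 CPM in cHCs and 59.8 to 386.9 in native libraries. Camk2b, a calcium-dependent kinase, and Rundc3a varied under 4-fold over the 8 libraries. Kif5c, a kinesin motor and the only member of 50 axonemal and microtubule genes, measured 135 and 291 CPM in cHCs and 121 to 311 in native libraries. None of these 5 was called in a contrast with cHCs. Over the whole lists, 5 of 38 tested signalling genes were higher and 1 lower in cHCs than in the native mean, as were 4 and 1 of 45 tested microtubule genes.

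**Figure D3:**
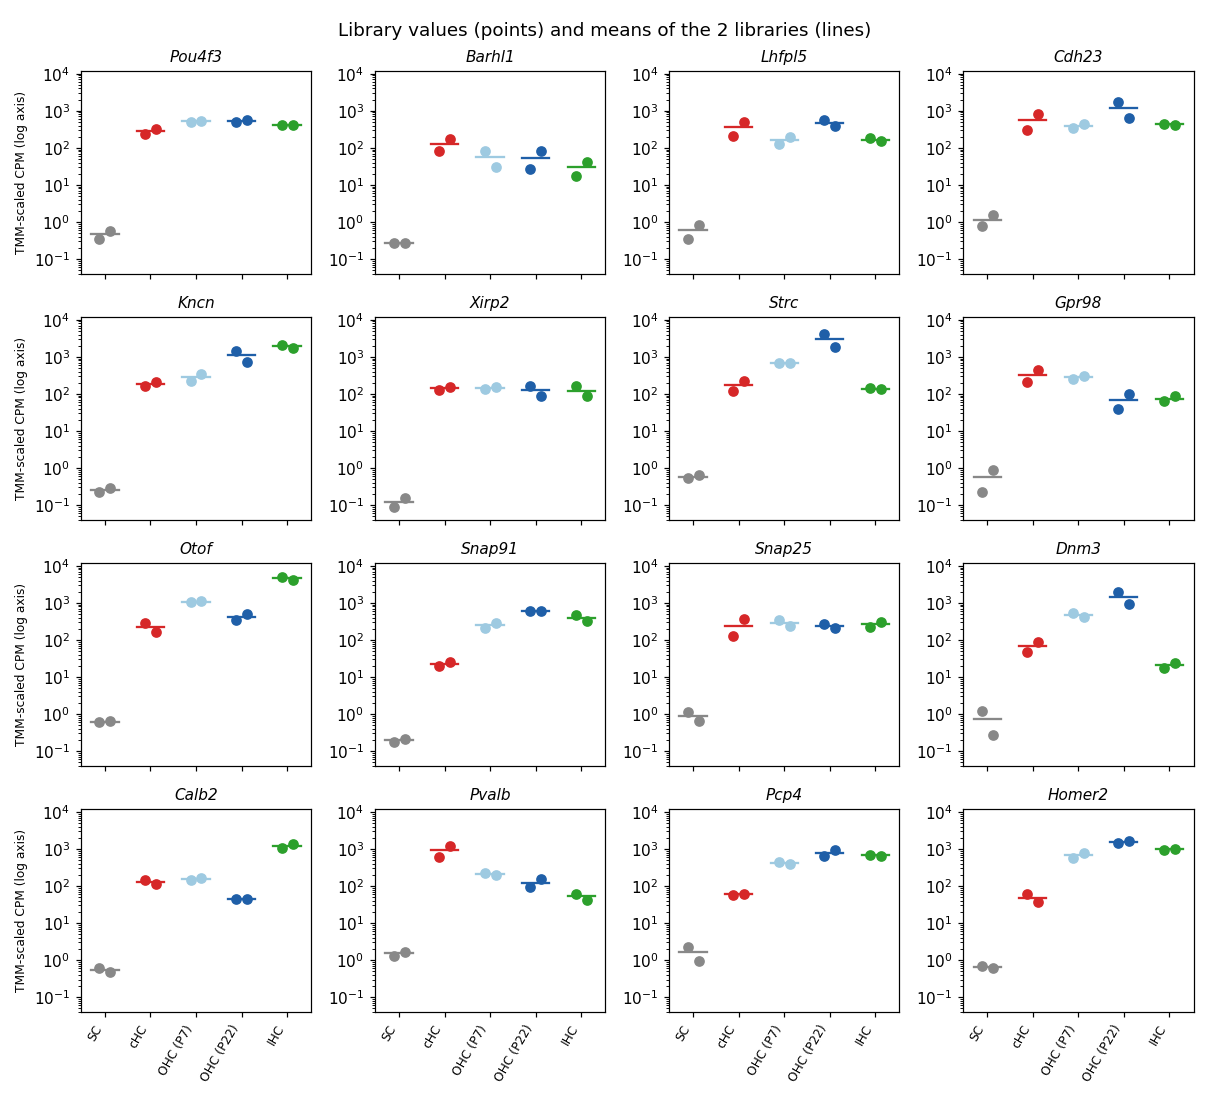
TMM-scaled CPM (log axis) of 16 of the genes in each library, with points for the 2 libraries of a cell type and a line at their mean. Xirp2 is level across the 4 hair cell types, as are the means of Snap25, whose 2 cHC points are its lowest and highest hair cell values. Homer2, Snap91 and Pcp4 step down in cHCs, Strc and Dnm3 peak in OHCs (P22), Otof and Calb2 in IHCs, and Pvalb in cHCs.

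The 80 genes on no role list included the 3 lowest of all relative to native cells, Homer2, Dytn and Fam40b. Homer2, a postsynaptic-type scaffold that is also known in hair bundles, measured 59.4 and 37.2 CPM in cHCs, 577 and 803 in OHCs (P7), 1454 and 1619 in OHCs (P22), and 948 and 1000 in IHCs, or 4.53% of the native mean. It was lower in all 3 contrasts (-3.84 ± 0.45, -4.99 ± 0.48 and -4.33 ± 0.46, adjusted p = 0.0122, 0.000845 and 0.00465). Fam40b (Strip2), a subunit of the STRIPAK phosphatase complex, measured 76.8 and 86.8 CPM in cHCs, 2722 and 2583 in OHCs (P7), 2517 and 2121 in OHCs (P22), and 115 and 92.8 in IHCs. It was lower than in OHCs of both ages (-5.02 ± 0.41 and -4.83 ± 0.41, adjusted p = 0.000631 and 0.000558), while against IHCs the difference was -0.34 ± 0.35 (adjusted p = 0.742). Dytn, dystrotelin, measured 74.3 and 41.8 CPM in cHCs, 558 and 469 in OHCs (P7), 3754 and 2211 in OHCs (P22), and 204 and 205 in IHCs, with -5.68 ± 0.52 against OHCs (P22) (adjusted p = 0.000674).

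Hsd17b7, an enzyme of cholesterol synthesis, measured 146 and 145 CPM in cHCs and 789 to 2422 in native libraries, and was lower in all 3 contrasts (-3.96 ± 0.60, -2.68 ± 0.57 and -3.01 ± 0.57, adjusted p = 0.0272, 0.028 and 0.0358). Padi2, a protein deiminase, measured 36.9 and 16.3 CPM in cHCs and 148 to 546 in native libraries, lower than in OHCs of both ages. Apba1, the adaptor Mint1 of presynaptic terminals, measured 240 and 298 CPM in cHCs against 545 and 705 in OHCs (P7) and 2110 and 1973 in IHCs, with -2.92 ± 0.39 for cHCs against IHCs (adjusted p = 0.00678). In all 3 contrasts 4 members were lower in cHCs, among them Homer2, Snap91 and Hsd17b7.

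Counted over all members, cHCs differed from each native type mostly downwards. Against OHCs (P7), 8 of the 126 genes were lower and 0 higher, where 0.219% of all 16891 tested genes were lower and 0.124% higher. Against OHCs (P22), 27 were lower and 1 higher (all genes 1.16% and 2.02%). Against IHCs, 14 were lower and 1 higher (0.42% and 0.503%). Against the mean of the 3 native types, 19 were lower and 1 higher (0.805% and 3.45%). A joint test over the 4 hair cell types called 31 members, and 3.75% of all genes. In 1 draw of counts simulated for the contrast with the native mean, a larger share of edgeR's calls was false than the threshold of 0.05 allows. The 3 contrasts share the cHC libraries. In total 32 members were called in at least 1 of them and 94 in none, which does not show that those 94 were alike. The share of all tested genes was not computed for these counts, nor for the 4 members lower in all 3. At an unadjusted p under 0.05 the contrasts held 45, 64, 39 and 52 members, and 1884, 3257, 2161 and 3171 of all 16891 genes. Both cHC libraries lay below all 6 native libraries for 50 members (39.7%), where 5.38% of all tested genes did, and above all 6 for Mreg and Pvalb, where 8.74% did. A gene at 0 in a native library cannot lie below it, so 5.38% is not a matched share. The share among genes with at least 10 CPM in all 8 hair cell libraries was not computed.

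The 3617 genes with at least 10 CPM in all 8 hair cell libraries share the members' floor but were not matched to them on level. Among these 3617 the shares called lower were 0.442% against OHCs (P7), 3.07% against OHCs (P22), 0.995% against IHCs and 1.94% against the native mean. The members had 6.35%, 21.4%, 11.1% and 15.1%. The median log2 ratio of the members, cHC to OHC (P7), was -0.92 (range over library pairs -1.14 to -0.57). It was -1.52 for OHC (P22) (-1.77 to -1.26), -0.58 for IHC (-0.94 to -0.27) and -0.97 for the native mean. For the 3617 genes the same medians were -0.22, -0.45, -0.18 and -0.28, and for all tested genes 0.11, 0.33, 0.08 and 0.19. On plain CPM the members' medians were -0.64, -0.95, -0.45 and -0.64. The members minus the 3617 genes came to -0.70, -1.06, -0.40 and -0.68 with TMM scaling.

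**Figure D4:**
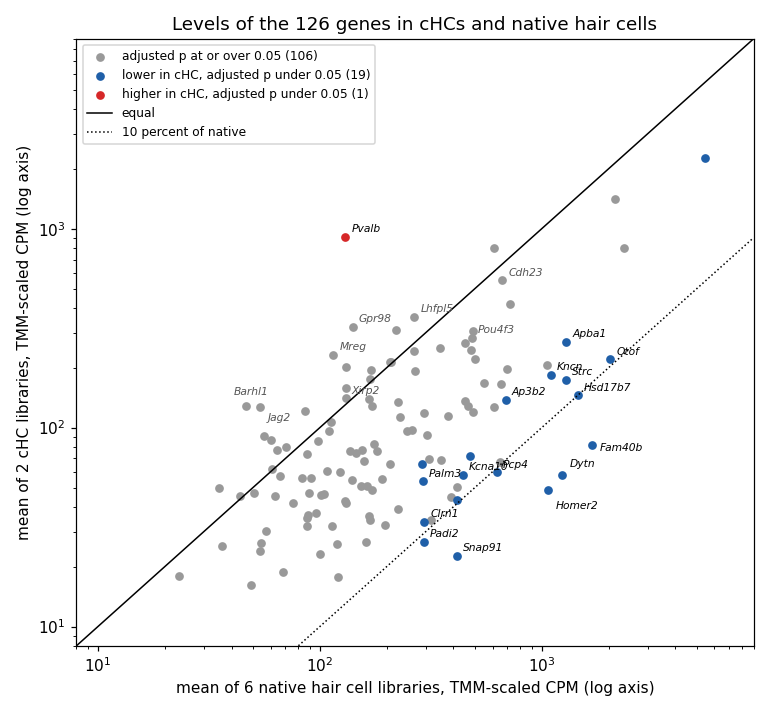
Mean of the 2 cHC libraries (y axis) against the mean of the 6 native libraries (x axis) for the 126 genes, both in TMM-scaled CPM on log axes, with the line of equality and a dotted line at 10 percent of native. The 19 blue points, called lower in cHCs, lie to the right at high native levels, below the dotted line for Homer2, Fam40b, Dytn, Snap91, Padi2 and Pcp4 and on it for Hsd17b7, and Pvalb (red) is the only gene called higher.

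The number of calls rested on single libraries. Against OHCs (P7) the 8 calls became 2 without cHC library 16 and 4 without either OHC (P7) library, and Fam40b and Homer2 were called with any 1 library left out. Against OHCs (P22) the 28 became 11 without cHC library 13 and 13 without the P21 library of OHCs (P22), and 9 genes were called throughout (Clrn1, Dnm3, Dytn, Fam40b, Homer2, Palm3, Pcp4, Snap91 and Strc). Against IHCs the 15 became 8 without cHC library 16, 9 without the P74 IHC library and 8 without the P75 IHC library, with Apba1, Homer2, Kncn, Otof and Snap91 called throughout. Against the native mean the 20 became 11 and 12 without cHC library 13 or 16 and 33 without either SC library, with Dytn, Fam40b, Homer2, Hsd17b7, Otof, Pcp4, Pvalb and Snap91 called throughout. Without cHC library 13 the median log2 ratio to OHCs (P7) was -0.63, and without library 16 it was -1.19.

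**Figure D5:**
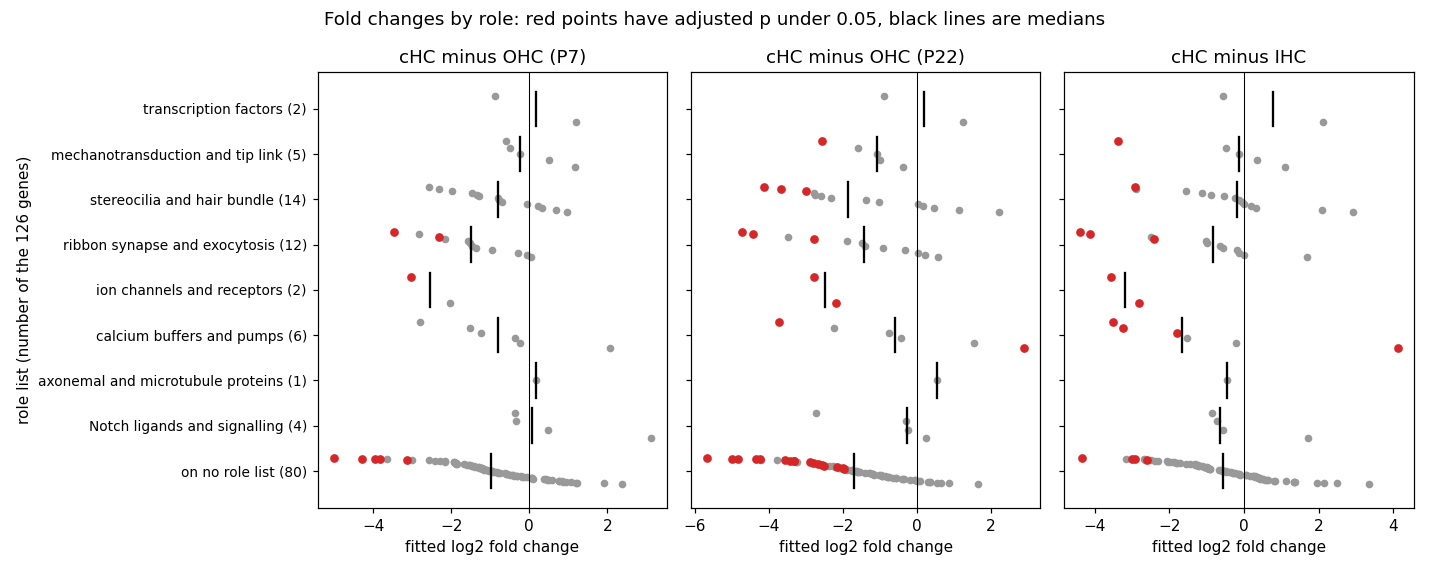
Fitted log2 fold change of each gene (x axis) in 3 contrasts of cHCs with a native type, by role list (y axis), with red points for adjusted p under 0.05 and black lines at medians. Red points lie left of 0 except Pvalb in the contrasts with OHCs (P22) and IHCs. The 5 genes of the mechanotransduction and tip link list and the 2 transcription factors straddle 0 against OHCs (P7).

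The native types also differed from each other, in contrasts added after the values were seen. From P7 to P22 in OHCs, 2 members were called higher, Dytn (2.54 ± 0.45, adjusted p = 0.044) and Celsr3 (4.29 ± 0.77, adjusted p = 0.0454), and 0 lower, where 0.13% and 0.42% of all genes were called. Celsr3, a planar polarity cadherin, measured 26.4 and 25.2 CPM in OHCs (P7), 711 and 298 in OHCs (P22), and 103 and 166 in cHCs. Neither call held without the P21 library of OHCs (P22) or without either OHC (P7) library, where the count was 0, while it was 7 without the P22 library and 4 without either cHC library. Between IHCs and OHCs (P22), 2 members were higher in IHCs (Calb2 and Otof) and 9 lower (Ckmt1, Dnm3, Dytn, Fam40b, Hydin, Lrtm2, Miat, Strc and Zfp365), where 0.977% and 0.485% of all genes were called. Without the P21 library of OHCs (P22) the 11 calls became 7, without the P74 or P75 IHC library they became 7 and 6, and without either SC library 19. Zfp365, a zinc finger protein, measured 15 and 12.3 CPM in IHCs and 188 to 244 in OHCs of both ages (-4.12 ± 0.65 against OHCs (P22), adjusted p = 0.0158), with cHCs between at 105 and 49.

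Genes of inherited deafness overlapped the list. Of 102 such genes in the files, 19 are members, among them Otof, Strc, Cdh23, Ptprq, Clrn1, Lhfpl5, Pou4f3 and AI428936 (Syne4, which anchors the hair cell nucleus). Their median fitted log2 fold change was -0.87 against OHCs (P7), -1.60 against OHCs (P22) and -0.48 against IHCs, with 2, 5 and 3 members lower and 0 higher. Over all 93 tested deafness genes 3, 9 and 4 were lower and 0, 4 and 3 higher. AI428936 measured 83.2 and 189 CPM in cHCs, 1027 and 511 in OHCs (P22), and 19.9 and 19.6 in SCs (-2.50 ± 0.56 against OHCs (P22), adjusted p = 0.037).

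The labels were checked against genes outside the rule or used to pick cells. Chrna9, whose promoter drove the EGFP, measured 670 and 648 CPM in cHCs, 131 to 405 in OHCs and 7.14 and 17.8 in IHCs. Atoh1, whose reads do not separate the transgene, measured 364 and 1812 CPM in cHCs and at most 6.44 in native cells. Slc26a5 (prestin) measured 97.6 and 23.4 CPM in cHCs, 1061 to 3789 in OHCs and at most 1.31 in IHCs. Summed over 23 supporting cell markers, SCs held 4072 and 4816 CPM, cHCs 2049 (library 13) and 1278 (library 16), OHCs (P7) 1698 and 3292, OHCs (P22) 669 and 732, and IHCs 2745 and 3218. Sox2 measured 77.5 and 77.1 CPM in SCs, 30.9 and 6.94 in cHCs, and 14.6 and 8.8 in IHCs. Sox9 measured 402 and 242 CPM in SCs, 126 and 16 in cHCs, and 96 and 64.5 in IHCs. Gjb2 measured 124 and 393 CPM in SCs, 83.4 and 1.73 in cHCs, and 611 and 468 in IHCs, above both SC libraries. The sums were led by Rorb in most libraries (594.6 of 669 and 653.5 of 732 CPM in OHCs (P22)) and by Fgfr3 in cHCs (458 and 431). Of the 23 markers, 12 were called higher in cHCs than in OHCs (P22) and 0 lower, 10 higher and 1 lower than in the native mean, 1 higher than in OHCs (P7), and 0 higher and 1 lower than in IHCs. Summed over 9 neuron markers outside the list, SCs held 3.33 and 9.85 CPM, cHCs 47.7 and 150, OHCs 51.8 to 227 and IHCs 499 and 705. Nefm and Calb2 are both neuron markers and members. Glia markers (6 genes) summed to 30.7 to 254 CPM, blood and immune markers (5 genes) to at most 29.7, and mesenchyme and vessel markers (7 genes) to 706 and 831 in SCs, led by Lum, and 11.1 to 405 elsewhere. The part of other cells in the member levels was not tested.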

How the data were processed

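RNA was taken from pools of hand-picked cells (PicoPure extraction, NuGEN Ovation V2 amplification) and sequenced in 10 libraries. The submitters' processing notes name CASAVA 1.7, STAR, BWA and HTSeq with mm9, and the study's methods add Cutadapt. The authors deposited raw counts of reads per gene, 1 file per library. Of the 10 files, 4 are attached to the record of another sample. Libraries were taken from the file names, which are sample titles. Each file's counts were checked against the library columns of the study's own CPM table, and all 10 matched the column with the same library number. Rows for unassigned reads (44.2% to 72.1% of all counts in the files) were left out.

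Plain CPM chose the 126 genes. The members and the role lists were chosen with earlier results of these data known. For the tests, edgeR 4.0.16 was run in R 4.3.3 on the counts (filterByExpr by cell type, TMM factors, quasi-likelihood F-test, all 10 libraries in 1 model), with Benjamini-Hochberg adjustment over 16891 genes and a threshold of 0.05. Median log2 ratios used log2 CPM with a prior count of 2. DESeq2 1.42.0, limma-voom (limma 3.58.1), no filter, only the types compared, the files as attached, and leaving out each library were alternatives. Counts were simulated in 1 draw, with known changes in cHCs and no differences among the other types. For the contrast with the native mean, every tool missed part of the changed genes. Each made a larger share of false calls than its threshold allows, DESeq2 the largest. Adjusted p-values may therefore be too small, but 1 draw neither ranks the tools nor gives their usual share of false calls. Named genes were, per role list, the 3 members with the smallest and 2 with the largest spread over the 8 libraries, the 5 highest and lowest in cHCs relative to native, up to 6 per direction with the smallest adjusted p in each cHC contrast, the 10 with the widest margin over SCs, 5 on either side of the fold of 5, and Chrna9, Atoh1, Slc26a5 and Pvalb. Others were named after their values were seen. Results for 2 of the 126 genes are not reported here by name.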

Additional observations from a re-analysis of the deposited data

How the results depend on the processing

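No replicate number is shared between cell types, but the titles split SCs, cHCs and OHCs (P7) into 2 sets. Over genes, deviations within a set were uncorrelated between types (0.03, 0.04 and -0.02), so the sets were not taken as pairs. With the sets as a replicate block, added after seeing the data, 7, 24, 16, 20 and 32 members were called (order as below), 0 for P7 to P22 in OHCs and 11 for IHCs against OHCs (P22). Otof and Padi2 were not called against OHCs (P7) in that fit. With 2 libraries a type, calls moved with the method. Against OHCs (P7), OHCs (P22), IHCs and the native mean, and in the joint test, DESeq2 called 21, 54, 26, 39 and 64 members, limma-voom 21, 43, 26, 34 and 51, and no filter on low counts 18, 45, 25, 36 and 60, where edgeR with the filter called 8, 28, 15, 20 and 31. DESeq2 and the unfiltered fit kept every gene called in the first 4, and limma-voom all but Rgs12 and Strc, each in 1 contrast. With only the types compared in the fit, 12 were called against OHCs (P22). For P7 to P22 in OHCs the 2 calls became 16, 9, 12 and 0 (DESeq2, limma-voom, no filter, only those types), and for IHCs against OHCs (P22) the 11 became 32, 23 and 27. With the files as attached to the records, 0 genes met the rule and 0 of the 126 were called, and the medians to OHC (P7), OHC (P22), IHC and native were -3.81, -4.44, -3.72 and -4.12. Plain CPM gave medians of -0.95 for OHC (P22) and -0.64 for native. Leaving out each library in turn gave 2 to 12, 11 to 40, 8 to 20, 11 to 33 and 22 to 46 calls, 0 to 7 for P7 to P22 and 6 to 19 for IHCs against OHCs (P22). The medians ran from -1.19 to -0.63, -1.69 to -1.35, -0.77 to -0.26 and -1.23 to -0.86. The number of genes meeting the rule ran from 129 to 249, the highest without either SC library (216 and 249). It was 171 at 3-fold, 99 at 10-fold, 180 at 5 CPM, 103 at 20 CPM, and 121 with TMM, of which 114 are among the 126. The causes were not tested. Where a library was left out, the remaining library of its type was assumed to vary like the other types. Of 55 log2 fold changes of named genes past the threshold, none changed sign with DESeq2 or limma-voom.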
